A study of Mus musculus with 30 samples.

Results

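The replication-dependent histone genes of the mouse were examined in total-RNA libraries of sorted microglia. Members were the protein-coding genes of the count table whose GENCODE M21 symbol starts with Hist1h, Hist2h, Hist3h or Hist4h, and 65 of the 46078 genes in the table met this rule. They comprised 6 genes of linker histone H1, 18 of H2A, 16 of H2B, 12 of H3 and 13 of H4. The Hist1 cluster on chromosome 13 held 52 of them, the Hist2 cluster on chromosome 3 held 10, Hist3 on chromosome 11 held 2 and Hist4 on chromosome 6 held 1. A further 2 genes that meet the symbol rule in the annotation, Hist1h2bh and Hist1h2bm, have no row in the table.

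Core histones H2A, H2B, H3 and H4 form the protein spool around which DNA is wrapped, and H1 binds the linker DNA between spools. The genes studied here supply the bulk of these proteins while DNA is being copied, and their transcripts accumulate in S phase and are degraded when replication ends. Their messenger RNAs are the only known animal mRNAs that normally lack a poly-A tail. They end instead just after a short hairpin, the histone stem-loop, which is bound by the stem-loop binding protein Slbp and cut with the help of the U7 small nuclear RNA. Some of these genes can also give longer, polyadenylated transcripts, a form known from cells that have stopped dividing.

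The study compared microglia, the resident macrophages of the brain and spinal cord, from C57BL/6 mice with and without the autophagy gene Atg7, unimmunized (naive) or at day 21 or day 35 of experimental autoimmune encephalomyelitis (EAE), a mouse model of multiple sclerosis. The 30 libraries fell into 8 groups by title: naive WT, naive KO and naive old with 4 libraries each, day 21 WT with 3, day 21 KO with 4, day 35 WT with 4, day 35 KO with 4 and day 35 old with 3. The labels give the KO groups as Atg7fl/fl Cx3cr1CreERT and the WT groups as Atg7wt/wt Cx3cr1CreERT2, so both carry a tamoxifen-inducible Cre driven from the Cx3cr1 locus, which is active in microglia and in other macrophages and monocytes. The old groups are labelled as Atg7 wild type, and ages are given as young or old. Per the labels' protocol tamoxifen was given as 4 mg per dose, 3 times, with 48 h between doses. A wait of 18 days or more followed before immunization with recombinant mouse myelin oligodendrocyte glycoprotein and pertussis toxin to induce EAE. Living CD11b+ CD45int Ly6G- cells, eYFP+ cells, or both, were sorted from tissue pooled 1:1 from females and males. The labels do not say that replicates were separate pools, so the p-values measure the spread between these libraries, which may be technical. Of the libraries titled day 35 WT, replicate 3 carries a knockout status of ATG7_KO in its labels and was kept with its title.

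Library totals ran from 4712803 to 11034565 counts with a median of 6769302, RNA integrity numbers from 8.5 to 10.0, and the mitochondrial share of counts from 2.14% to 9.12%. The Atg7 count over the whole gene had a lower mean in KO than in WT only in naive mice. It was 20.2 ± 8.62 CPM (SD, n = 4) in naive KO against 31.6 ± 6.32 (n = 4) in naive WT, with overlap. At day 21 it was 32.8 ± 2.73 (n = 4) in KO against 23.2 ± 3.02 (n = 3) in WT. At day 35 it was 32.5 ± 1.54 in KO against 22.6 ± 1.41 in WT (n = 4 each). At both days every KO library lay above every WT library (lowest KO 30.98 and 30.27 CPM, highest WT 25.33 and 23.8). None of these 3 differences passed the edgeR test (adjusted p = 0.516, 0.303 and 0.338), and reads outside the deleted exons are part of this count, so KO and WT below mean the libraries labelled so. CPM here is a gene's count on the usual per-million scale, relative to the library total scaled by the trimmed mean of M-values (TMM). The microglial genes P2ry12 and Tmem119 were present in every group, and lowest in day 21 KO at 349 and 754 CPM. Genes of other cell types differed between groups and are given beside the results. Day 35 old replicate 1 stood apart from the 2 other libraries of its group and naive old replicate 4 was the highest of its own; results that rest on them are given with and without them.

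The histone stem-loop was visible in the annotated transcripts of 42 of the 65 members. It was searched as GGNNNNTTTNNNNNCC on the sense strand of GENCODE M21 transcripts, with the 6 bases on either side of a 4-base loop required to pair, and 26 of 21836 other protein-coding genes (0.12%) held the same pattern. A total of 6 forms, each of 16 bases, were found. The commonest, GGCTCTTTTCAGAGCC, occurred in 24 members and included the H1 genes with the highest levels. The form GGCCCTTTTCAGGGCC occurred in 7 members, all of H4. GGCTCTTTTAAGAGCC was found in 6 members, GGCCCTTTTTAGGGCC and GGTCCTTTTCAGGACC in 2 each, and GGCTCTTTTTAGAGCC in 1. The sites of 10 members that recur in the results are shown with 5 flanking bases on each side, the stem-loop in capitals, as DNA letters in the sense of the transcript:
Hist1h1c: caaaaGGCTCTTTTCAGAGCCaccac
Hist1h1e: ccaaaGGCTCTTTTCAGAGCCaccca
Hist3h2a: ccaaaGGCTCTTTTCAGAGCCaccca
Hist1h2be: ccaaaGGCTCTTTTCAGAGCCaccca
Hist1h3c: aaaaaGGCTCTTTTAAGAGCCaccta
Hist1h4c: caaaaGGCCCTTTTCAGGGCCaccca
Hist1h4f: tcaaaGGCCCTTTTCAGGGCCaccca
Hist4h4: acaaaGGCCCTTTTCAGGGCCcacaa
Hist1h4i: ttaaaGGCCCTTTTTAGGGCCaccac
Hist2h2ac: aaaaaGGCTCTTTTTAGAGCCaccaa

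Hist1h1c, Hist1h1e, Hist3h2a and Hist1h2be carried the same hairpin, and Hist1h4c, Hist1h4f and Hist4h4 shared another. The annotated transcript ended within 100 bases after the hairpin in 21 members and ran on for more than 100 bases in another 21. Among the long ones were Hist1h1d with 4884 bases after the hairpin, Hist4h4 with 2445, Hist1h2be with 1861, Hist3h2a with 1643 and Hist1h4i with 330. In the remaining 23 members no hairpin was found, and many of those models end at the coding sequence, so a missing hairpin describes the model only.

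Promoter windows from RefSeq (GRCm38.p6, 250 bases before to 50 bases after the annotated start) were matched for 59 members and searched on both strands. The octamer ATTTGCAT, known from H2B promoters, lay in 5 of 14 H2B and 7 of 17 H2A windows and in none of the H1, H3 or H4 windows, against 1.75% of 27025 promoters. CCAAT was in every H1, H2A, H2B and H3 window and in 3 of 12 H4 windows, against 37.92% of all promoters, and TATAAA was in 8 of 12 H4 and 11 of 17 H2A windows against 14.16%. Many H2A and H2B genes lie head to head and share the stretch between their starts. One such pair, Hist1h2ak and Hist1h2bn, is shown because both members fell in the WT mice with EAE: the stretch between the annotated starts, chr13:21753913-21754075 of GRCm38.p6 on the plus strand, hold CCAAT in 3 places (1 forward and 2 reverse, in capitals).
Hist1h2ak and Hist1h2bn: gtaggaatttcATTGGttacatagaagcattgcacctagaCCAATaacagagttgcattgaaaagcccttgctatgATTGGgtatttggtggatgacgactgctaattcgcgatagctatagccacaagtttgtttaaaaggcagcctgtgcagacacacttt

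All 65 members together took 83152 counts, between 0.0229% and 0.128% of a library. H1 genes held 46.5% of these counts. Enough reads for testing were found for 50 members, 5 of H1, 11 of H2A, 12 of H2B, 9 of H3 and 13 of H4; the other 15 held 495 counts together (0.595%), 5 of them none and 4 between 1 and 10. Because the coding sequences are nearly alike, many members share stretches of sequence. A median of 55.1% of the 50-base stretches of a tested member occurred in no annotated transcript of another gene. It was 11.3% for untested members, and 20 of the 50 tested members were below 50%. Genes that overlap a member were left out of this comparison, and the rest of the genome was not searched. Their counts depend on how the authors' counting treated reads with several matches, and they are uncertain as single genes. The strand setting of the counting is not given in the sources used here, and 14 tested members overlap a gene on the opposite strand and 5 a gene on their own strand, among them Hist1h1e with Hist1h2be and Hist3h2a with Trim17.

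Per kilobase of exon, the highest mean level over all 30 libraries was that of Hist1h1c, which encodes linker histone H1.2, at 50.03 CPM per kb (ENSMUSG00000036181, GRCm38 chr13:23738808-23740367, plus strand). It was followed by Hist1h1e, encoding H1.4, at 37.1 CPM per kb (ENSMUSG00000051627, chr13:23620629-23622558, minus strand). Hist2h2ac at 26.7, Hist1h2ak at 26.4, Hist1h4d at 22.5 and Hist1h4h at 21.8 CPM per kb came next, and Hist1h2bc and Hist1h2bg led the H2B genes at 16.7 and 16.4. The H3 genes were low: Hist2h3b reached 6.23, Hist1h3e 5.14 and Hist1h3a 4.24 CPM per kb.

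The summed level of all 65 members was highest in naive WT, naive old and 1 library of day 35 old, and lowest in WT mice with EAE. In naive WT it was 357, 561, 818 and 657 CPM in the 4 libraries (598 ± 192, SD), and in naive KO 395, 340, 309 and 340 CPM (346 ± 35.8). Only replicate 1 of naive WT lay within the range of the KO libraries. At day 21 the sums were 251, 258 and 236 CPM in WT (248 ± 11.3) and 259, 253, 305 and 311.6 in KO (282 ± 30.2), and at day 35 they were 248, 222, 245 and 232 in WT (237 ± 11.7) and 269, 309, 268 and 337 in KO (296 ± 33.5). Every WT library with EAE lay below every naive WT library. In old mice the sums were 579, 386, 528 and 1130 CPM when naive (656 ± 326.7) and 1398, 330 and 278 at day 35 (669 ± 632). Without day 35 old replicate 1 the day 35 old mean was 304 CPM, and without naive old replicate 4 the naive old mean was 497. In order of mean level the groups ran day 35 old, naive old, naive WT, naive KO, day 35 KO, day 21 KO, day 21 WT and day 35 WT. The libraries of each group overlapped those of the next group in this order, so no 2 neighbours were separated by more than their spread.

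**Figure D1:**
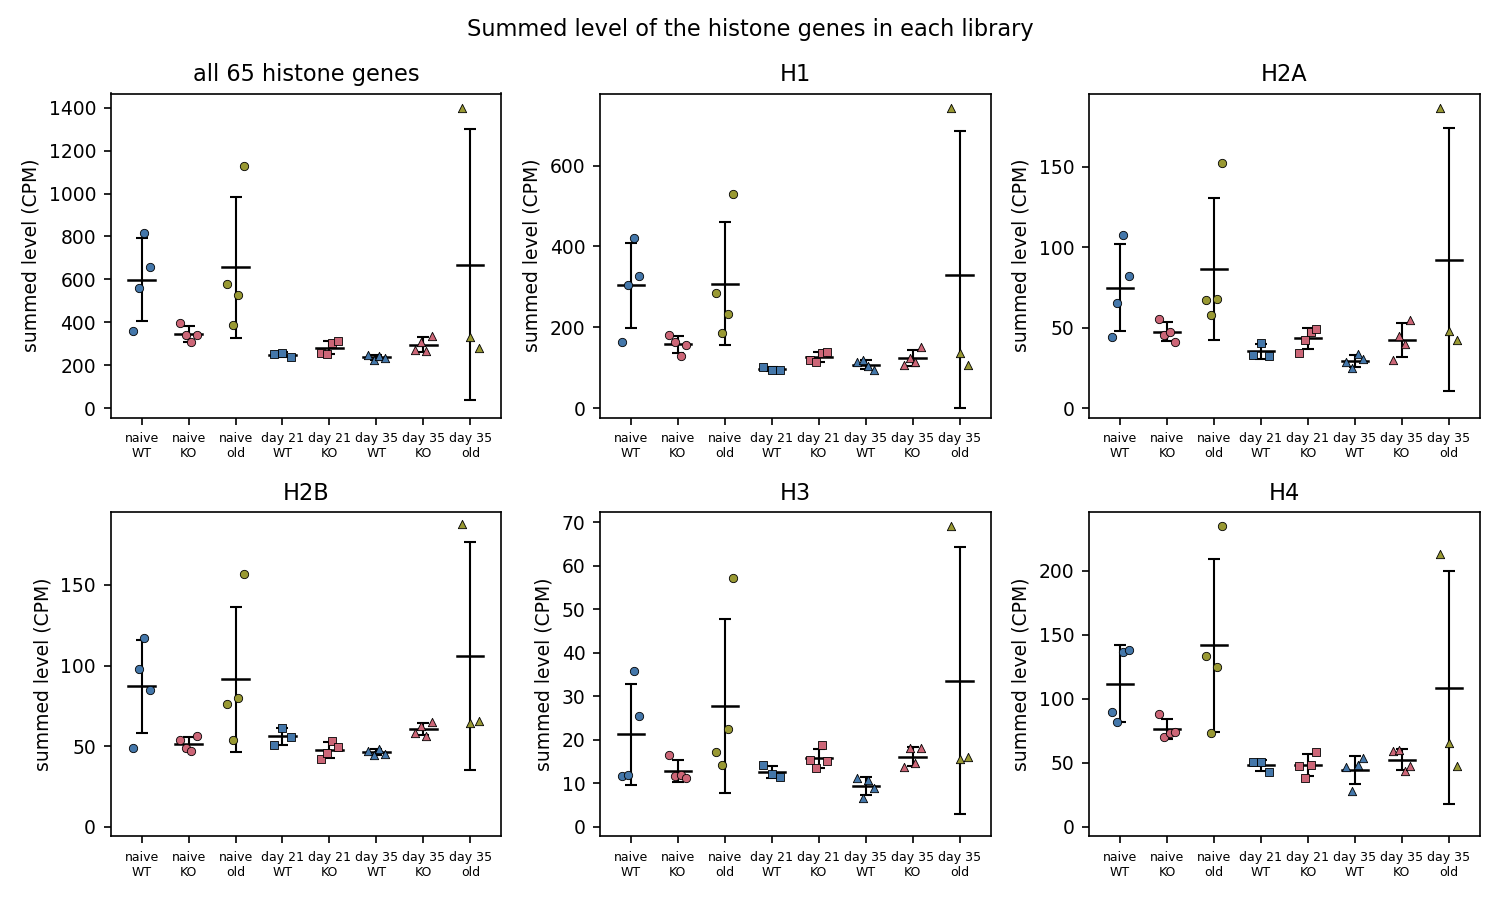
Summed level of the histone genes in each of the 30 libraries, in CPM scaled by TMM, for all 65 members and for each class; points are libraries, lines group means and bars the SD, cut at 0. The 7 young WT libraries with EAE sit between 222 and 258 CPM, below every naive WT library, and day 35 old replicate 1 stands at 1398.

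In WT microglia histone gene counts were lower with EAE than without it. The summed level was 2.41 times lower at day 21 and 2.53 times lower at day 35 than in naive WT. At day 21, 17 of the 50 tested members fell and none rose, where 12% of all 13880 genes tested fell and 21.5% changed in either direction (edgeR quasi-likelihood test, Benjamini-Hochberg adjusted p under 0.05). At day 35, 28 fell and none rose, against 10.7% of all genes falling and 19.1% changing. All 17 members that fell at day 21 were among the 28 at day 35; the comparisons share the naive WT libraries. The median log2 fold change of the 50 tested members was −1.36 at day 21 and −1.71 at day 35, with 46 and 49 of 50 negative, while the median over all genes stayed within 0.025 of 0. Between day 35 and day 21 no member was called (median −0.30; 3 at unadjusted p under 0.05), where 0.0648% of all genes were.

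All classes took part in the fall at day 35: 5 of 5 tested H1 genes, 6 of 11 H2A, 6 of 12 H2B, 3 of 9 H3 and 8 of 13 H4. Hist1h1c ran from 72.9 to 149 CPM in the 4 naive WT libraries (117.4 ± 32.6), and stood at 41.7, 40.1 and 37.1 at day 21 and at 53.1, 52.3, 43.1 and 45.5 at day 35. The groups did not overlap, and its log2 fold change was −1.57 (SE 0.439, adjusted p = 0.0131, edgeR) at day 21 and −1.28 (SE 0.394, adjusted p = 0.0267) at day 35. Hist1h1e stood at 64.5, 121, 145.97 and 119 CPM in naive WT against 36.2, 33.7 and 38.2 at day 21 and 47.2, 48.5, 43.4 and 37.2 at day 35. It fell by 1.64 on the log2 scale at day 21 (SE 0.452, adjusted p = 0.012, edgeR) and by 1.35 at day 35 (SE 0.406, adjusted p = 0.0232). Hist1h1d, encoding H1.3, fell from 40.5 ± 19.3 CPM in naive WT to 9.98 ± 2.76 at day 35 (n = 4 each), a log2 fold change of −2.02.

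The H4 genes encode the same protein in many copies, and several with a largely unique transcript fell. Hist1h4c, with 80.4% of its 50-base stretches in no other gene's annotated transcripts, stood at 11.03, 10.8, 14.7 and 17.5 CPM in naive WT (chr13:23697635-23698454, minus strand). It stood at 4.69, 5.56 and 5.14 CPM at day 21 and at 4.86, 2.59, 5.95 and 7.07 at day 35. No WT library with EAE reached the lowest naive WT library, and the log2 fold changes were −1.40 (SE 0.33, adjusted p = 0.00329, edgeR) and −1.40 (SE 0.302, adjusted p = 0.00253). Hist1h4h fell by 1.46 at day 21 and 1.64 at day 35 on the log2 scale, and Hist1h4d by 1.47 and 1.46. Hist1h4f had few reads and wide spread in naive WT, at 1.03, 2.58, 9.12 and 8.70 CPM, against 0.335, 0.293 and 0.0935 at day 21 and 0.572, 0.152, 0.47 and 0.577 at day 35, log2 fold changes of −4.52 (SE 1.05) and −3.55 (SE 0.86).

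Among the H2B genes that were called, Hist1h2bc fell least, from 26.5 ± 5.71 CPM in naive WT to 14.1 ± 2.11 at day 35 (n = 4 each; log2 fold change −0.91, SE 0.196, adjusted p = 0.00253, edgeR). Hist1h2bn, the divergent neighbour of Hist1h2ak, went from 75 reads over the 4 naive WT libraries to 1 read over the 3 day 21 WT libraries. The ratio of its library-scaled counts was 71.2, with an exact 95% interval of 12.4 to 2850 that covers counting error only. Hist1h2ak itself fell by 2.17 at day 21 and 2.23 at day 35 on the log2 scale. Of the H2A genes, Hist1h2af changed by −3.70 and −4.51. The H3 genes Hist1h3b and Hist1h3c were near 0 in day 35 WT, with 1 and 3 reads over 4 libraries against 44 and 65 in naive WT, ratios of 47.8 (8.14 to 1930) and 23.5 (7.7 to 117). Hist1h2ak, Hist1h2af, Hist1h2bn and Hist1h3b are each under 50% unique and cannot be taken as single genes.

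**Figure D2:**
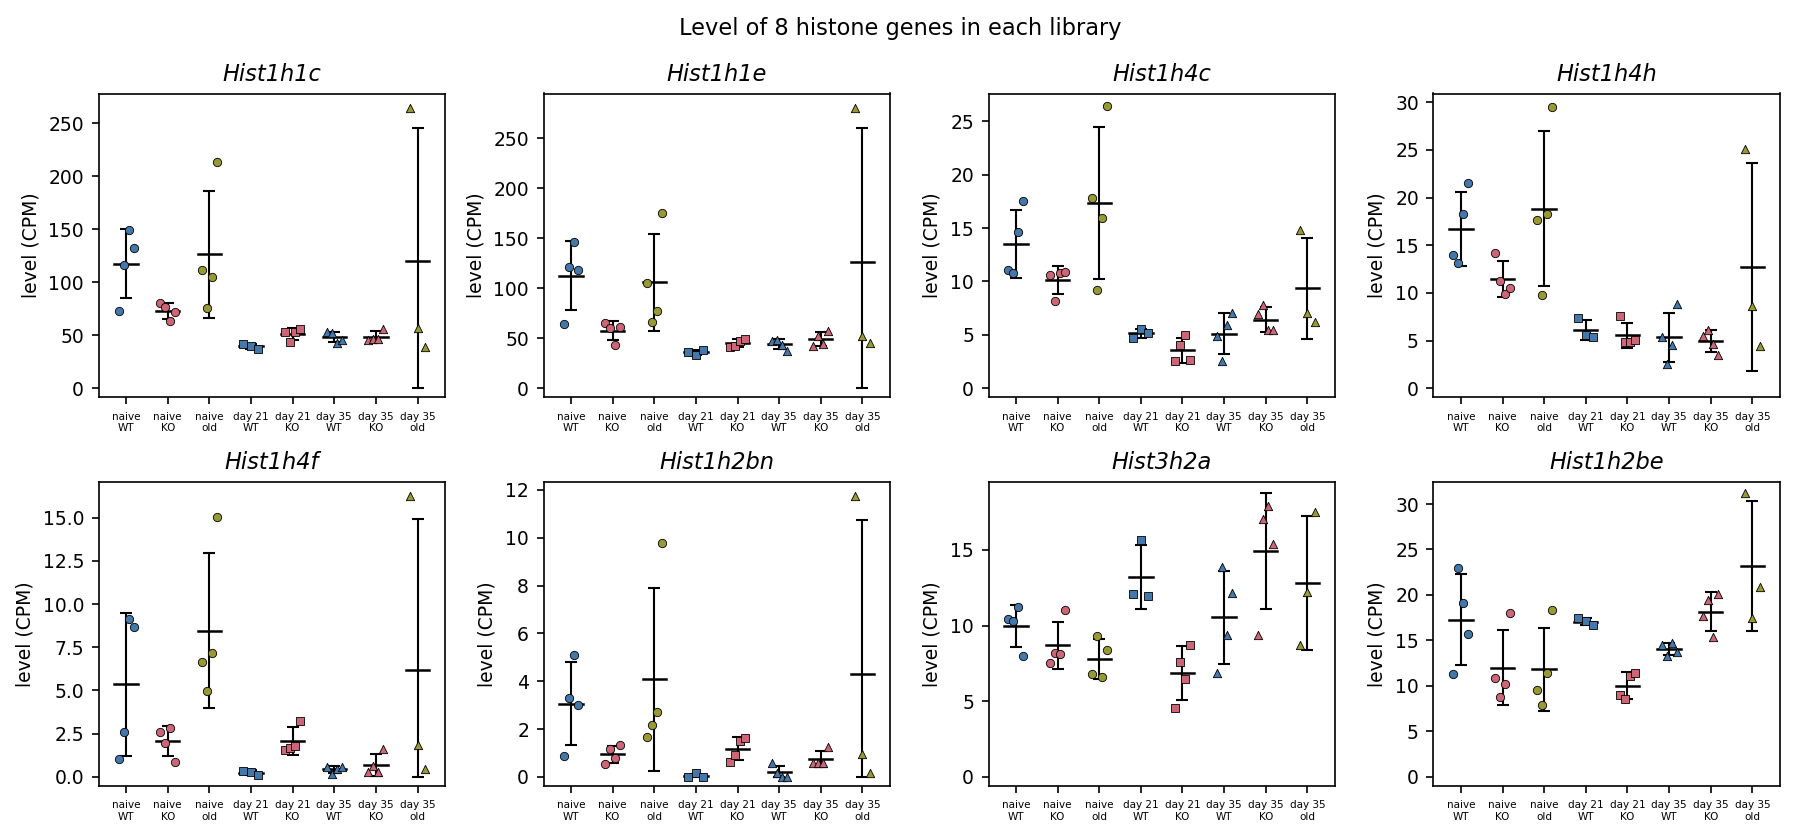
Level of 8 members in each library, in CPM scaled by TMM; points are libraries, lines group means and bars the SD, cut at 0. Hist1h1c, Hist1h1e, Hist1h4c and Hist1h4h are lower in all 7 young WT libraries with EAE than in every naive WT library, while Hist3h2a and Hist1h2be are not.

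Not every member was called lower, although 46 and 49 of the 50 fold changes were negative at days 21 and 35. Of the 50 tested, 12 were called in none of the 14 comparisons, among them Hist2h2ac, Hist1h2bg, Hist1h3a and Hist1h3e. The share of all genes without any call was not counted. Hist3h2a and Hist1h2be were not called against naive WT at either day: Hist3h2a stood at 10.4, 10.3, 11.2 and 7.98 CPM in naive WT and at 12.1, 15.7 and 11.97 at day 21. By length after the hairpin, the median log2 fold change at day 35 against naive WT was −1.99 for the 16 tested members with up to 100 bases, −1.28 for the 17 with more and −2.24 for the 17 with no hairpin found, with 8, 8 and 12 called lower.

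The number of calls depended on single libraries. Against naive WT at day 21 it was 8 without naive WT replicate 3, and 8, 7 and 5 without day 21 WT replicates 1, 2 and 3. At day 35 it was 16 without naive WT replicate 3, 18 without day 35 WT replicate 1 and 16 without replicate 2. Hist1h1c lost its call at day 21 without replicate 2 or 3 of day 21 WT and Hist1h1e without replicate 2, with adjusted p up to 0.0534 and 0.0553. Hist1h1e also lost its day 35 call without naive WT replicate 2 or 3 or day 35 WT replicate 1 or 4, and Hist1h1c without any of 7 libraries (adjusted p up to 0.0597 and 0.066). Hist1h4c, Hist1h4f and Hist1h2bn kept both calls without any 1 library.

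Neutrophil transcripts moved with the histone genes. The labels' sort names Ly6G- cells, but it also allows sorting by eYFP, and the sort of each library is not given here. The 13 neutrophil markers other than Csf3r summed to 1538, 7647, 16430 and 8928 CPM in the 4 naive WT libraries and to between 4.54 and 39.3 CPM in the 7 WT libraries with EAE. Csf3r, which averaged 475 CPM in naive WT, 693.5 at day 21 and 656 at day 35, was left out of that sum after its values were seen. With it the 14 markers summed to 2021, 8049, 16917 and 9459 CPM in naive WT and to between 599 and 810 in WT with EAE, again without overlap. The naive WT library with the lowest neutrophil sum, replicate 1, also had the lowest histone sum. Of the 14 markers on the list 13 fell and 1 rose at each day; Ly6g averaged 18.1 CPM in naive WT and 0.0738 in day 35 WT, and Elane was 0 in every day 35 WT library. Monocyte markers fell in 6 of 12 and border macrophage markers in 8 of 10 at each day, and 4 and 3 of 10 microglia markers fell at days 21 and 35. The part of these cells in the histone result was not tested, and in bulk samples fewer cells of a type and less RNA per cell cannot be told apart.

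Among genes of the cell cycle, 1 of 36 S phase and replication genes rose and 1 fell at day 21. None of 20 genes of G2 and mitosis was called. The median log2 fold change at day 21 was nevertheless −1.23 for G2 and mitosis genes, against −0.20 for S phase genes. It was −1.36 for the 50 tested histone genes. The summed G2 and mitosis level was 2.39 times lower at day 21, 180.7 CPM against 431.9 in naive WT, with overlap between libraries. At day 35, 7 of 36 and 15 of 20 fell, among them Nusap1, a spindle protein (log2 fold change −3.99), Ube2c, which marks mitotic proteins for destruction (−4.38), and Ccna2, cyclin A2 (−3.31). Of 23 genes for histone mRNA synthesis and processing 20 were tested: 1 rose and 4 fell at day 21, with Cpsf2, part of the cleavage machinery, changing by −0.50, and 3 rose at day 35, which were Cpsf1, Srrt and Nup98. Slbp itself averaged 39.8 CPM in naive WT, 32.7 at day 21 and 32.5 at day 35. Replication-independent histone variants, which can be polyadenylated and can also be made outside S phase, fell in 1 of 9 tested genes at day 21 and in 5 at day 35. The 5 included H3f3a, for H3.3, by 0.87 and H2afv by 0.70 on the log2 scale. Of 8 tested RNAs without a poly-A tail, 3 fell at each day (Rn7s2, Rmrp and Rny3), with list medians of −0.96 and −1.02. Histone chaperones were called in both directions, 3 higher and 2 lower at day 21 and 1 higher and 5 lower at day 35.

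Between libraries labelled KO and WT, the histone genes had no common direction over the 3 stages. In naive mice no member was called (15 at unadjusted p under 0.05; lowest adjusted p = 0.167, edgeR), where 0.288% of all genes were; 49 of 50 fold changes were negative with a median of −0.92 on the log2 scale. DESeq2 also called none, and edgeR called 6, all lower, once day 35 old replicate 1 and naive old replicate 4 were left out together. Without naive WT replicate 1 or without day 35 old replicate 1 it called 1. The shares of all genes called in these runs are not given here. The naive KO libraries had neutrophil sums without Csf3r of 2611, 2444, 2275 and 122.3 CPM against 1538 to 16430 in naive WT, and no neutrophil marker was called (list median −1.95). At day 35 no member was called either (5 at unadjusted p under 0.05; lowest adjusted p = 0.106), where 2.62% of all genes were; 46 of 50 fold changes were positive with a median of 0.67, and DESeq2 called none. Day 35 KO held neutrophil sums without Csf3r of 634, 585, 118 and 3319 CPM against 4.54 to 39.3 in day 35 WT. With Csf3r they were 1225, 1164, 667 and 3862 CPM against 599 to 810, so that replicate 3 lay within the WT range. Of the 14 markers 5 were called higher. Without day 35 WT replicate 3, whose labels disagree, or without day 35 old replicate 1, 1 member was called.

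At day 21 a total of 5 members differed between KO and WT, where 19% of all genes did, and 9.18% rose and 9.86% fell. Hist1h4f and Hist1h2bn rose, and Hist3h2a, Hist1h2be and Hist1h4i fell. The share of members called was below that of all genes, and the median of the 50 was 0.39 on the log2 scale with 35 positive. Hist3h2a, an H2A gene of the small Hist3 cluster (ENSMUSG00000078851, chr11:58954685-58956830, plus strand), stood at 4.55, 7.61, 6.46 and 8.74 CPM in KO against 12.1, 15.7 and 11.97 in WT. The groups did not overlap, and the log2 fold change was −0.95 (SE 0.256, adjusted p = 0.00987, edgeR; 0.065 without day 21 WT replicate 2). Hist1h2be stood at 8.95, 8.53, 11.1 and 11.4 CPM in KO against 17.4, 17.1 and 16.6 in WT, again without overlap (log2 fold change −0.765, SE 0.251, adjusted p = 0.0315, edgeR). Hist1h4i stood at 1.26, 1.11, 3.155 and 1.78 CPM against 3.68, 5.13 and 3.93 (−1.20, SE 0.373, adjusted p = 0.0241).

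The 2 that rose had low counts. Hist1h4f stood at 1.57, 1.67, 1.80 and 3.26 CPM in day 21 KO against 0.335, 0.293 and 0.0935 in WT, 53 against 5 reads (log2 fold change 3.15, SE 1.1, adjusted p = 0.0451, edgeR). Hist1h2bn had 30 reads in the 4 KO libraries against 1 in the 3 WT libraries, a ratio of 28.01 (exact 95% interval 4.66 to 1140, counting error only; adjusted p = 0.0368, edgeR). These calls were close to the threshold: the number of members called was 2, 0 and 1 without day 21 WT replicates 1, 2 and 3, and 2, 2, 3 and 3 without day 21 KO replicates 1 to 4. Hist1h2be lost its call without any of the 3 WT libraries or KO replicate 1 or 2 (adjusted p up to 0.0826), Hist1h4i without WT replicate 2 or 3 or KO replicate 1 or 2 (up to 0.11), Hist1h2bn without any WT library or KO replicate 3 or 4 (up to 0.158) and Hist1h4f without any of 12 libraries (up to 0.187) or with the i5 index as a term (0.0536).

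**Figure D3:**
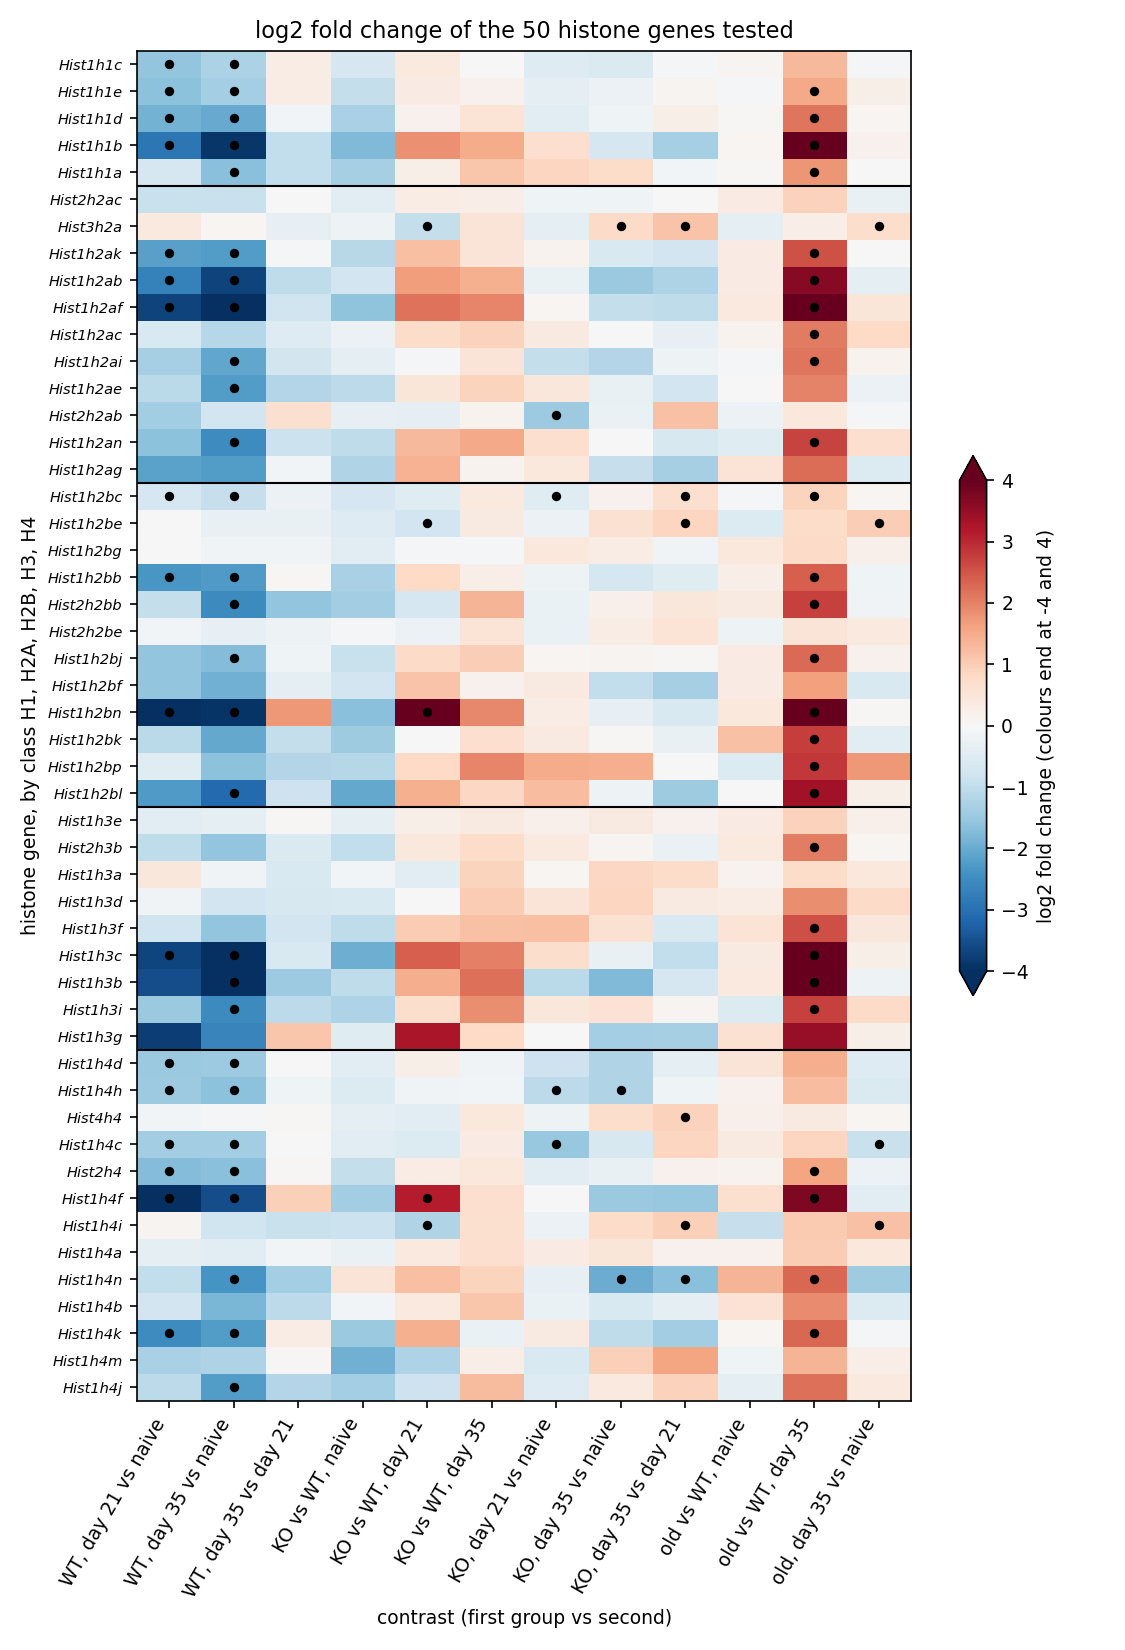
Log2 fold change of the 50 tested members (rows, by class) in 12 comparisons (columns); colours end at 4 in either direction and dots mark adjusted p under 0.05 (edgeR). The columns of WT with EAE against naive WT are lower throughout most rows with 17 and 28 dots, the column of old against WT at day 35 is higher in all 50, and the KO against WT columns hold 0, 5 and 0 dots.

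The difference between the KO effects at day 21 and in naive mice was itself tested as an interaction. It was called for Hist1h2bn (5.95 on the log2 scale, SE 1.64, adjusted p = 0.0238, edgeR) and Hist1h4f (4.53, SE 1.31, adjusted p = 0.0312), where 9.68% of all genes were called. The count was 0 without naive WT replicate 3 or day 21 WT replicate 1 or 3 and 12 without day 35 old replicate 1. The shares of all genes called in these runs are not given here. The median interaction of the 50 tested members was 1.27, with 42 positive and 15 at unadjusted p under 0.05. It was 1.14 for S phase genes, 2.96 for G2 and mitosis genes and 0.014 over all genes. Between day 35 and day 21 the KO effect differed for Hist3h2a (1.45, SE 0.346, adjusted p = 0.0206) and Hist1h4i (1.84, SE 0.509, adjusted p = 0.0467), where 2.67% of all genes were called; the count was 0 without day 21 WT replicate 2 or day 35 WT replicate 1 and 4 without day 35 old replicate 1.

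The interaction medians above were close for histone and S phase genes. At day 21 itself, proliferation genes were called higher more often than histone genes. In KO against WT, 17 of 36 S phase genes and 15 of 20 G2 and mitosis genes rose and none fell, among them E2f1, a transcription factor of S phase entry (log2 fold change 1.55), Cdt1, a licensing factor (1.01), Birc5, the chromosomal passenger survivin (2.63), and Bub1b, a spindle checkpoint kinase (2.20). The summed S phase level was 723 ± 51.8 CPM in day 21 KO (n = 4) and 410 ± 51.9 in day 21 WT (n = 3), 1.76 times higher, while the summed histone level was 1.14 times higher. Histone chaperones rose in 6 of 19 genes, including Chaf1a, a subunit of the chromatin assembly factor that loads histones behind the replication fork (2.09), Hat1, which acetylates new H4, and Daxx. None of the 20 tested histone mRNA synthesis and processing genes was called at any stage between KO and WT, and of the replication-independent variants H2afy, encoding macroH2A, was called at day 21. In the same libraries 9 of 10 microglia markers were lower and 7 of 12 monocyte, 5 of 10 border macrophage and 5 of 5 tested T and NK cell markers were higher in KO, and their part in the result was not tested.

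The ratio of the summed histone level to the summed level of the 36 S phase genes was lowest in day 21 KO, where it ran from 0.363 to 0.425 (0.39 ± 0.0257, n = 4). In the other 26 libraries it ran from 0.533 to 1.66, with 0.611 ± 0.0768 in day 21 WT, 0.678 ± 0.0317 in day 35 WT and 0.686 ± 0.0387 in day 35 KO. Over the 20 G2 and mitosis genes the ratio was 0.294 to 0.361 in day 21 KO and 0.641 to 4.46 elsewhere. These ratios were computed after the values were seen and are a description with no test.

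**Figure D4:**
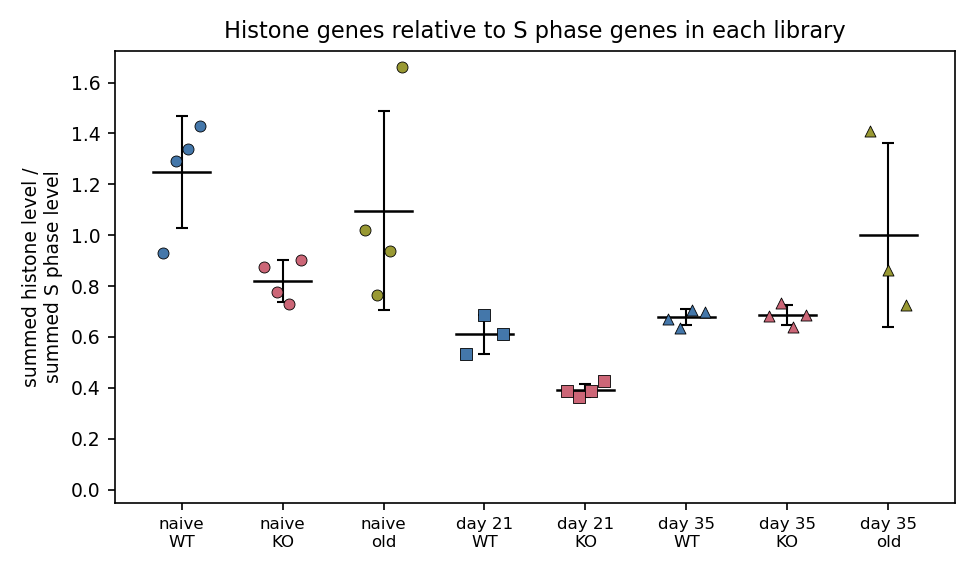
Summed level of the 65 histone genes divided by the summed level of 36 S phase and replication genes, by library; points are libraries, lines group means and bars the SD. The 4 day 21 KO libraries, between 0.363 and 0.425, lie below the other 26, which start at 0.533.

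Over time within the KO mice a smaller share of histone genes than of all genes was called. The summed H4 level was nevertheless lower with EAE. It was 70.09 to 87.82 CPM in naive KO, 37.84 to 58.67 at day 21 and 43.37 to 60.04 at day 35. Of the 13 tested H4 genes, 10 had negative fold changes at day 21 and 8 at day 35. The H2B sum at day 35, 56.47 to 64.8 CPM, lay above its naive KO range of 46.96 to 56.31. The remaining class sums overlapped those of naive KO, and no class sum was tested. From naive to day 21, 4 of 50 members fell and none rose, where 45.2% of all genes changed; the median was −0.01. Hist1h4c stood at 10.6, 8.22, 10.8 and 10.9 CPM in naive KO and at 2.51, 4.08, 4.96 and 2.67 in day 21 KO, with no overlap (log2 fold change −1.51, SE 0.314, adjusted p = 0.000291, edgeR). It kept this call without any 1 library. Hist1h4h (−1.04), Hist2h2ab (−1.46) and Hist1h2bc (−0.49) were the other 3, and the count was 2, 1 and 1 without day 21 KO replicates 1, 2 and 4. In the same comparison 25 of 36 S phase genes and 15 of 20 G2 and mitosis genes rose, 9 of 19 chaperones rose and 4 fell, and 11 of 14 neutrophil markers fell. Of the other cell markers tested, 9 of 10 microglia (list median −1.42) and 4 of 4 B and plasma cell markers fell, and 3 of 12 monocyte and 3 of 5 T and NK cell markers rose; their part was not tested.

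At day 35 against naive KO, Hist3h2a rose and Hist1h4h and Hist1h4n fell, where 21.4% of all genes changed. Hist3h2a stood at 9.36, 17.1, 17.9 and 15.4 CPM at day 35 against 7.5, 8.22, 8.11 and 10.998 in naive KO, where the lowest day 35 library overlapped the naive range (log2 fold change 0.78, SE 0.233, adjusted p = 0.0175, edgeR; up to 0.0557 without naive KO replicate 1 or 2 or day 35 KO replicate 3). The count of 3 became 1 without naive KO replicate 1 or 2 or day 35 KO replicate 3 or 4, and 5 without naive KO replicate 4, naive old replicate 2 or 4, or day 35 old replicate 1. In the same comparison 8 of 8 astrocyte, 7 of 8 oligodendrocyte, 6 of 8 neuron and 5 of 6 erythroid markers tested rose, while 7 of 10 border macrophage and 7 of 10 microglia markers fell. Their part in the histone values was not tested.

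From day 21 to day 35 in KO, 5 members rose and 1 fell, where 24.9% of all genes changed. Those that rose were Hist3h2a, Hist1h2be, Hist4h4, Hist1h4i and Hist1h2bc, and the one that fell was Hist1h4n. Hist3h2a changed by 1.13 (SE 0.24, adjusted p = 0.00108, edgeR) and Hist1h2be by 0.86 (SE 0.235, adjusted p = 0.00865), from 10.0 ± 1.47 to 18.2 ± 2.13 CPM (n = 4 each); both kept the call without any 1 library. Hist4h4, the H4 gene outside the clusters (ENSMUSG00000096010, chr6:136801553-136804415, minus strand), stood at 8.32, 3.15, 5.56 and 7.41 CPM at day 21 and 12.6, 16.02, 8.59 and 9.19 at day 35. Its groups did not overlap (0.91, SE 0.302, adjusted p = 0.027, edgeR), and its call was lost without day 21 KO replicate 2 or 3 or day 35 KO replicate 1 or 2 (adjusted p up to 0.112). Hist1h4i (adjusted p = 0.0491, edgeR) lost its call without any of 19 libraries, Hist1h4n (adjusted p = 0.0437) without any of 8, and Hist1h2bc without day 21 KO replicate 4 or day 35 KO replicate 3 (adjusted p up to 0.0715). Of the 5 that rose, 4 were among the 17 tested members annotated for more than 100 bases beyond the hairpin, and Hist1h2bc had no hairpin found in its models. Over the same interval 22 of 36 S phase genes and 15 of 20 G2 and mitosis genes fell, 4 of 19 chaperones and 4 of 20 histone mRNA processing genes fell, and 7 of 14 neutrophil, 8 of 10 microglia and 8 of 8 tested neuron markers rose. The count of 6 members became 3 without day 21 KO replicate 2 or 4 or day 35 KO replicate 1, 2 or 3. How reads were assigned where Hist3h2a overlaps Trim17 and Hist1h2be overlaps Hist1h1e is not given in the sources used here.

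Old and young WT naive libraries did not differ in any member (3 at unadjusted p under 0.05, and none called by edgeR), where 8.18% of all genes were called. The median was 0.18, and −0.26 without naive old replicate 4. Without naive old replicate 4 or without day 35 old replicate 1, edgeR called 1 member.

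At day 35, 27 of the 50 tested members were higher in old than in young WT mice and none lower, where 7.51% of all genes were higher and 9.45% changed. This rested on 1 library. All 50 fold changes were positive with a median of 2.05, and the calls covered 4 H1, 6 H2A, 8 H2B, 5 H3 and 4 H4 genes. Hist1h1c stood at 265, 57.0 and 38.7 CPM in the 3 old libraries and Hist1h1e at 281, 51.9 and 45.3, so that replicate 1 was far above and replicates 2 and 3 were near the day 35 WT libraries, which ran from 43.1 to 53.1 and from 37.2 to 48.5. Hist1h2af stood at 36.9, 2.07 and 0.145 CPM against 0.152 to 0.577 in day 35 WT (log2 fold change 5.36, SE 1.17, adjusted p = 0.0104, edgeR). Without day 35 old replicate 1 no member and no gene at all was called, the median of the 50 was 0.635, and the fold changes of Hist1h2af and Hist1h1e were 1.89 and 0.14. The count was also 13, 12 and 17 without day 35 WT replicates 1, 2 and 4. That library held 31830 CPM of neutrophil markers without Csf3r against 1957 and 73.4 in the other 2, and 44.3 CPM of Ly6g. With it in, 15 of 36 S phase genes, 20 of 20 G2 and mitosis genes, 13 of 14 neutrophil markers, 8 of 12 monocyte markers and 4 of 9 tested histone variants were higher in old mice.

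Within old mice, day 35 differed from naive in 4 members, with Hist1h2be (0.98 on the log2 scale, SE 0.247, adjusted p = 0.00794, edgeR), Hist1h4i (1.16) and Hist3h2a (0.72) higher and Hist1h4c (−0.89) lower, where 18.4% of all genes changed. Without day 35 old replicate 1 Hist1h2be (0.702, adjusted p = 0.0526, edgeR) and Hist1h4i (0.724, adjusted p = 0.2) lost their calls, and the count was 21, with 20 lower and 1 higher, and with naive old replicate 4 also left out it was 14, with 12 lower and 2 higher. The median of the 50 went from 0.08 to −1.26 and −0.77. The shares of all genes called in these runs are not given here, and the 18.4% belongs to the full fit. Hist3h2a stood at 8.69, 12.2 and 17.5 CPM at day 35 against 6.77, 9.33, 6.61 and 8.39 when naive; its call and that of Hist1h4c were lost when any of 22 and 19 libraries was left out, and leaving out any of 16 libraries other than day 35 old replicate 1 brought the count of 4 to 2 or 1. In the same comparison 6 of 8 astrocyte markers were higher, and 7 of 10 border macrophage and 4 of 10 microglia markers lower; their part was not tested.

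The library that was highest in the histone sum was often highest in the neutrophil sum. In every group but day 21 WT the same library was highest in the histone sum and in the neutrophil sum without Csf3r. In day 21 WT replicate 2 had the highest histone sum, 258 CPM, and the lowest neutrophil sum, 7.61 CPM. With Csf3r kept in, that library had the highest neutrophil sum of its group, 725 CPM against 719 and 700. Csf3r alone was 717.6 CPM of it. Naive KO replicates 2 and 4 both had histone sums of 340 CPM, with neutrophil sums of 2444 and 122.3 CPM. The 4 day 21 KO libraries had S phase sums of 669.5 to 790 CPM and histone sums of 253 to 311.6 CPM.

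**Figure D5:**
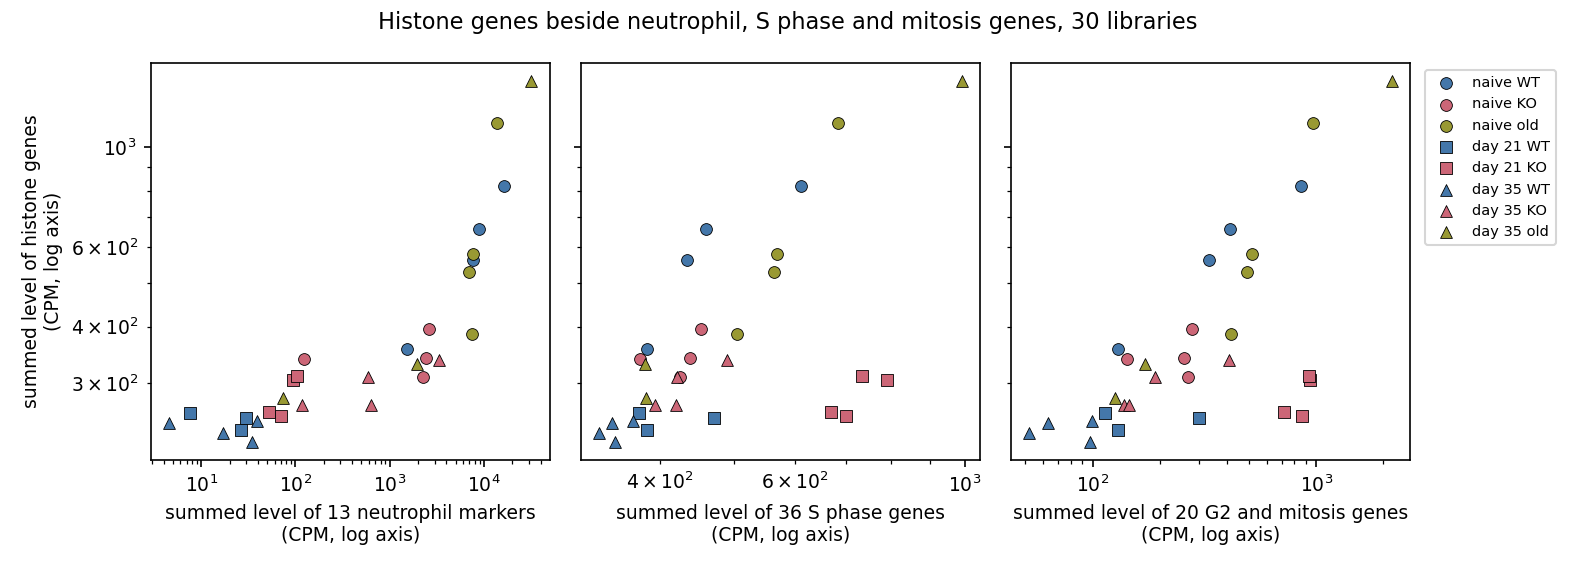
Summed level of the 65 histone genes (vertical, log axis, CPM) against the summed level of 13 neutrophil markers without Csf3r, of 36 S phase genes and of 20 G2 and mitosis genes (horizontal, log axes, CPM) in the 30 libraries, with colour for WT, KO or old and shape for the stage. Day 35 old replicate 1 lies at the upper right of all panels, and the day 21 KO libraries lie to the right of the other libraries of their histone level in the S phase and G2 panels.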

How the data were processed

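Total RNA of sorted cells was converted to libraries with a stranded kit for small amounts (SMARTer Pico, total RNA), per the labels' protocols; it does not select for poly-A tails. The authors deposited raw counts per Ensembl gene; CASAVA, bcl2fastq, STAR and the build GRCm38 are named in the submitters' processing notes, and what counted the reads, with which strand setting and annotation, is not given in the sources used here. A deposited sample table gives the RNA integrity number and clinical score of each library, per the file headers; the score was not used. Of the 32 count columns in the authors' table, 30 were matched to samples through the plate wells in that sample table, all 30 agreeing in group with the titles, and 2 were not used. Gene names came from GENCODE M21, which named 98.2% of the genes.

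Counts were tested with edgeR 4.0.16 (R 4.3.3, limma 3.58.1): filterByExpr by group (minimum count 10, minimum total 15), TMM factors, and robust quasi-likelihood fits of 8 group means over 30 libraries (22 residual degrees of freedom) on 13880 genes, with 14 comparisons and Benjamini-Hochberg adjustment over all genes. A change was called at adjusted p under 0.05. Counts were also simulated from the real means of the naive WT and day 35 WT libraries. A fit of these groups alone recovered the medians of the largest fold changes put in. The fit of 8 groups was not simulated. Low groups of up to 3 reads in total were compared as a ratio of counts with an exact 95% interval. Intervals cover counting error only. Alternatives were DESeq2 1.42.0, relative log expression size factors, no filter, only the groups compared, an i5 index term, regrouping the library with disagreeing labels, leaving out each library, and, chosen after seeing the data, leaving out the 2 old libraries with the highest sums.

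Members named in the text are the 3 with the highest mean level in each class and, in each comparison, the 4 called members with the largest fold change each way. From 17 lists of pathway genes and cell markers the 3 genes with the lowest adjusted p, or the 2 with the highest level, are named, except for items that are not reported here. Stem-loop sites were chosen to show the members that recur. The members and lists were chosen with earlier results of these data known.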

Additional observations from a re-analysis of the deposited data

Results flagged for a closer look

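In 19 of 180 sets of a gene or class within a group of 4 libraries, 1 library lay far from the other 3 (Dixon's ratio above 0.829); about 1 in 20 sets is marked by chance. Of these, naive old replicate 4 was high for the H2A sum (152.6 CPM against 58.0 to 68.0), Hist1h2bn (9.787 CPM against 1.66 to 2.72) and Hist1h3b (6.292 CPM against 0.583 to 1.31). Day 35 KO replicate 4, the library of its group with the most neutrophil marker RNA, was high for Hist1h1c (56.35 CPM), Hist1h2ak (9.061 CPM) and Hist1h2bn (1.241 CPM). Day 21 KO replicate 4 was high for Hist1h4f (3.26 CPM) and Hist1h4n (4.0 CPM), while day 21 KO replicate 1 was high for Hist1h4h (7.537 CPM) and low for Hist2h3b (1.57 CPM). Naive KO replicate 1 was high for the H3 sum (16.5 CPM against 11.1 to 11.97) and Hist1h1d (20.73 CPM). Among the other naive KO libraries, replicate 2 was low for Hist1h4c (8.217 CPM), replicate 3 for Hist1h2bc (11.84 CPM), and replicate 4 for Hist1h3c (0.0 CPM). Hist1h4i was high in naive WT replicate 3 (5.833 CPM) and in naive old replicate 1 (2.9 CPM). In day 35 WT, Hist1h3b was present only in replicate 3 (0.1565 CPM) and Hist1h3c was 0.0 CPM in replicate 2, both a matter of single reads.

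The KO effect differed between stages for 4 members (edgeR interaction tests). Against naive mice it was higher at day 21 by 4.534 for Hist1h4f (adjusted p = 0.0312) and by 5.95 for Hist1h2bn (adjusted p = 0.0238) on the log2 scale. Against day 21 it was higher at day 35 by 1.843 for Hist1h4i (adjusted p = 0.0467) and by 1.449 for Hist3h2a (adjusted p = 0.0206).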

How the results depend on the processing

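No paired analysis was possible because the labels give no replicate numbers that tie libraries of different groups together. The i5 index, a library barcode that groups share, was fitted as a term instead, and 9 calls of named members were lost with it. Of 63 calls of named members, none reversed under any alternative that gave a result for them. The call was kept by 14 in every run that gave a result. Of these, Hist1h4f and Hist1h2bn in WT at day 35 against naive had results in 6 of the 7 settings other than leaving out each library. The call was lost by 49 when some library was left out and by 35 under another setting, 27 of these without the filter on low counts. The cause of the changes was not tested, and the shares of all genes called under each setting are not given in this section. Without that filter 2 members were called in KO against WT at day 21 (5 with it), 10 in WT at day 21 against naive (17), 2 in KO at day 21 against naive (4), 17 in old against WT at day 35 (27), 1 in old at day 35 against naive (4), 0 in the interaction of day 21 with naive (2) and 1 in that of day 35 with day 21 (2). With only the groups compared in the fit these counts were 10, 17, 7, 0, 0, 12 and 5, and 17 in WT at day 35 against naive (28), 8 in KO at day 35 against naive (3) and 1 in old against WT naive (0). With the i5 index as a term, 5 members were called in KO at day 35 against naive and 14 in old against WT at day 35. DESeq2 called 5 in the former, 7 in the interaction of day 21 with naive and 33 in old against WT at day 35. With day 35 old replicate 1 and naive old replicate 4 left out, 6 members were called in KO against WT naive (0), 1 at day 35 (0), 7 in KO at day 21 against naive, 9 in KO at day 35 against naive, 1 in old against WT naive, 0 in old against WT at day 35, 14 in old at day 35 against naive, and 14 and 5 in the interactions.

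Leaving out each library in turn gave 0 to 1, 0 to 5 and 0 to 1 calls in KO against WT in naive mice, at day 21 and at day 35. It gave 5 to 21 and 16 to 34 in WT at days 21 and 35 against naive, and 0 to 0 between the days. In KO it gave 1 to 5, 1 to 5 and 3 to 7 for day 21 against naive, day 35 against naive and day 35 against day 21. In old mice it gave 0 to 1 and 0 to 37 against WT in naive mice and at day 35, and 1 to 21 for day 35 against naive, and in the interactions 0 to 12 and 0 to 4. Mean summed levels ranged from 524.9 to 678.4 CPM in naive WT, 329.6 to 358.2 in naive KO, 497.4 to 745.6 in naive old, 243.3 to 254.3 in day 21 WT, 272.4 to 291.7 in day 21 KO, 233.1 to 241.6 in day 35 WT, 282.1 to 304.9 in day 35 KO and 304.0 to 863.9 in day 35 old. The filter on low counts left 15 members untested, and Hist1h2bn, Hist1h3b and Hist1h3c held 1 to 3 reads in some whole groups.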

Other observations

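Over the 30 libraries, which share groups, depth and cell makeup, the log2 CPM of each other gene was set against the log2 summed histone level (1 CPM added to both). Among the closest 10 of the other 13830 genes tested were Mogat2 (Pearson r = 0.96), Adpgk (0.956), Lta4h (0.955), Tex15 (0.951), Cldn15 (0.947), Megf9 (0.946), Far2 (0.942), Chdh (0.941) and Msra (0.94). Lta4h makes the neutrophil attractant leukotriene B4. By list, the median r over tested genes was 0.835 for neutrophil markers, 0.668 for monocyte markers, 0.653 for G2 and mitosis, 0.565 for RNAs without a poly-A tail, 0.519 for replication-independent histone variants, 0.516 for border macrophage markers, 0.429 for S phase and replication and 0.393 for histone chaperones. It was 0.327 for B and plasma cell, 0.171 for erythroid and 0.061 for microglia markers, 0.039 for histone mRNA synthesis and processing, −0.004 for endothelial, −0.019 for T and NK cell, −0.196 for neuron, −0.226 for oligodendrocyte and −0.393 for astrocyte markers, against −0.022 over all other genes. These are correlations across libraries that fall into groups and are a description with no test.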
